A study of Mus musculus with 6 samples.

Results

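The genes described here are 10 regulators and enzymes of fatty acid oxidation, the breakdown of fatty acids in mitochondria to yield energy: Ppara, Ppargc1a, Ppargc1b, Esrra, Esrrg, Cpt1a, Cpt1b, Acadm, Cd36 and Fabp3. They were picked by name for their roles in the pathway and are 10 of the 21866 protein-coding genes of the GENCODE M21 annotation (mouse build mm10). Every open-chromatin peak that overlaps the body of one of these genes, or the 10 kb to either side of it, was assigned to that gene.

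The study mapped open chromatin by Omni-ATAC, in which a transposase inserts sequencing adapters into accessible DNA, in nuclei from whole hearts of mice at postnatal day 1 (P1). It compared nuclei enriched by magnetic immunoprecipitation with unsorted nuclei, and 2 biological replicates of 50000 nuclei each were made for each of the 3 groups. Input nuclei came from wildtype hearts and were purified on a 2.2M sucrose cushion alone. Myc nuclei came from Nkx2-5 Cre/+; R26RSun1-Myc-Egfp/+ hearts, purified on the same cushion and pulled down with a Myc antibody, and PCM1 nuclei came from hearts labelled WT, pulled down with an antibody to the protein PCM1 after the cushion. The tag of the Myc nuclei is switched on wherever Cre was expressed from the Nkx2-5 locus at any time before, so the tag by itself marks a lineage. The study used the dense sucrose cushion in order to keep heart muscle cell nuclei, and describes the nuclei from it as almost purely of that type. The Myc hearts also differ from the Input hearts in genotype, so sorting and genotype cannot be told apart. All values are from bulk nuclei, where fewer cells of a type and less accessibility per cell cannot be told apart.

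Fatty acids enter heart muscle cells with the help of the membrane protein CD36, are carried in the cytosol by the binding protein FABP3, and cross the mitochondrial membrane as carnitine esters made by CPT1 before enzymes such as ACADM shorten them step by step. The nuclear receptors PPARα, ERRα and ERRγ, with the coactivators PGC-1α and PGC-1β, are known to drive transcription of these genes. The heart is known to move from glucose and lactate towards fatty acids as its main fuel in the first weeks after birth.

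The deposited lists held 131500 and 75336 peaks for Input, 107216 and 108513 for Myc, and 83139 and 81487 for PCM1 (replicates 1 and 2 in this order, here and below). Input replicate 1 stood apart in depth: its genome-wide background pileup, solved from the lists, was 3.96 overlapping fragments against 1.02 in Input replicate 2, 1.44 in both Myc libraries, and 0.98 and 0.9 in the PCM1 libraries. Because depth differs so much, the strength of a peak is given here as a rank percentile of its -log10 q-value within its own library, where 100 is the strongest peak and 0 stands for no peak. A longer list raises these percentiles by construction, since it adds weak peaks below a given one, so the order of the groups by promoter rank was also taken with the same number of strongest peaks in each library (75336). Peaks that overlap between libraries by at least 1 bp were joined into regions, 169881 over the whole genome.

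The labels of the libraries were set against the data before anything else. The tag of the Myc hearts holds Sun1 coding sequence, and peaks with summits in Sun1 coding exons numbered 0 and 0 in the Input libraries, 4 and 4 in the Myc libraries, and 3 and 7 in the PCM1 libraries. The PCM1 libraries are labelled wildtype, yet they carried such exon peaks at ranks of up to 86.5 and 79.1, above the 57 and 55.5 of the Myc libraries. Where those peaks come from was not tested, and the gene order, the region counts, the pairs and the Myc minus Input calls are therefore also given without them, which is not possible for the comparisons with PCM1. Of 8 cardiomyocyte marker genes, 7 had a promoter peak in every library, and Tnnt2 had none in any library at the principal start site. The same held for 7 of 8 endothelial, 8 of 8 smooth muscle and pericyte and 5 of 8 fibroblast marker genes. Of all protein-coding genes 56.5% had such a peak, so this count does not tell heart muscle from endothelial or smooth muscle cells.

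All 10 genes had a peak within 1 kb of the principal transcription start site in every one of the 6 libraries. Across all 21866 protein-coding genes this held for 12354, or 56.5%. Esrra and Acadm carried promoter peaks among the strongest of the genome in all 6 libraries, while the promoters of the uptake genes Cd36 and Fabp3 were lower and more variable in q-value rank. The gene windows held 199 regions, of which 72 (36.2%) were called in all 6 libraries, against 28.8% of all regions. A further 57 of the 199 (28.6%) were called in 1 library only, against 30.4% of all regions. Without both PCM1 libraries the windows held 189 regions, 78 of them in all 4 libraries. By place, 162 regions had their summit in an intron, 4 in an exon and 33 outside the gene, and 47 lay nearer to the start site of another protein-coding gene.

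**Figure D1:**
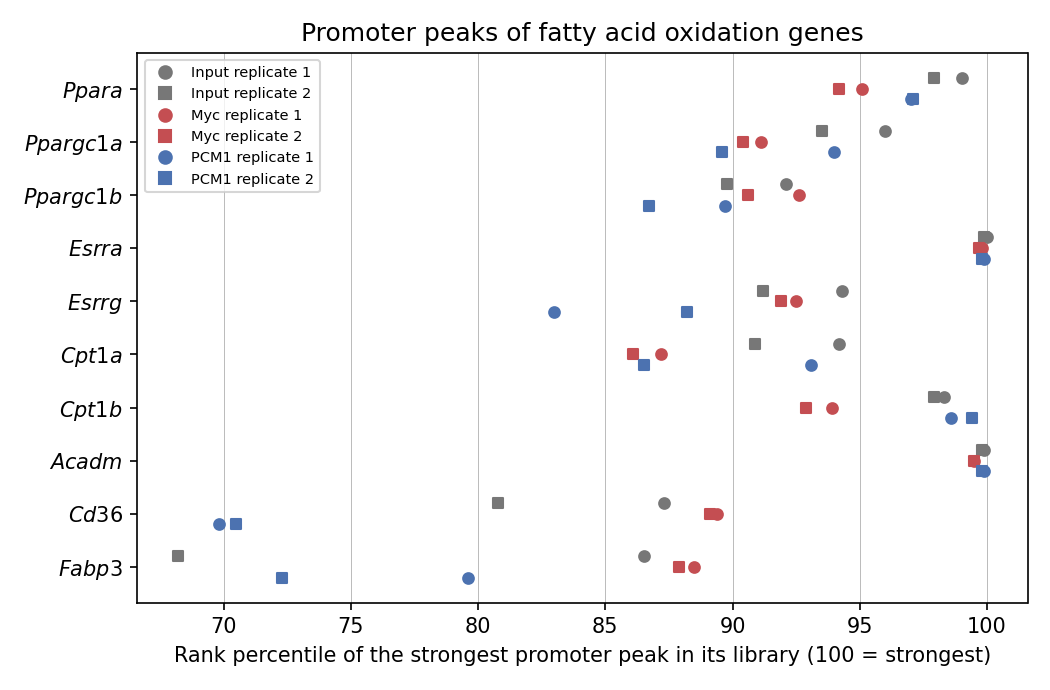
Rank percentile (x axis, 100 is the strongest peak of the library) of the strongest peak within 1 kb of the principal start site for the 10 genes (y axis), with 1 point per library, coloured by group and shaped by replicate. Esrra and Acadm lie at 99.5 or above in all 6 libraries, and Cd36 and Fabp3 spread over the widest ranges, down to 69.8 and 68.2.

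Ordered by the mean promoter rank of the 6 libraries, the genes ran from Esrra (99.8, SD 0.101) and Acadm (99.7, SD 0.208) through Cpt1b (96.8, SD 2.75), Ppara (96.7, SD 1.78), Ppargc1a (92.5, SD 2.46), Ppargc1b (90.2, SD 2.12), Esrrg (90.2, SD 4.07) and Cpt1a (89.7, SD 3.54) to Cd36 (81.1, SD 9.05) and Fabp3 (80.5, SD 8.64; n = 6 libraries for each). The low end of the order differed by group. In both Myc libraries Cpt1a was lowest (87.2 and 86.1), below Cd36 (89.4 and 89.1) and Fabp3 (88.5 and 87.9). These Fabp3 values come from a different promoter region than those of Input and PCM1. At the promoter region that gave the Input and PCM1 values, Fabp3 lay below Cpt1a in both Myc libraries, as given with the gene below. The spread between the 6 libraries also holds differences between the groups. Cpt1b, for example, was above Ppara in both PCM1 libraries (98.6 and 99.4 against 97 and 97.1) and in no other library. Most neighbours in the order of the means did not differ beyond this spread between the 6 libraries. The exceptions were Ppara over Ppargc1a, with a mean within-library difference of 4.28 (SD 1.68) and Ppara higher in 6 of 6 libraries, and Acadm over Cpt1b, with 2.92 (SD 2.56) and Acadm higher in 6 of 6. Without both PCM1 libraries these 2 differences were 3.81 (SD 0.592) and 3.96 (SD 2.54), each in 4 of 4 libraries. In that order Acadm over Ppara (3.12, SD 2.04), Ppara over Cpt1b (0.837, SD 0.592) and Cpt1b over Ppargc1a (2.98, SD 0.94) were also beyond their spread in 4 of 4, and the means ran Esrra (99.8), Acadm (99.7), Ppara (96.6), Cpt1b (95.7), Ppargc1a (92.8), Esrrg (92.5), Ppargc1b (91.3), Cpt1a (89.6), Cd36 (86.6) and Fabp3 (82.8). The order rests on the measure: ranked by fold enrichment over the local background in place of the q-value, the mean rank of Fabp3 was 30.3, that of Cpt1a 61.3, that of Ppargc1b 61.8 and that of Cd36 76.7, so Cd36 lay above Cpt1a and Ppargc1b, while Acadm (96.2) and Esrra (93.6) were again at the top.

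Between the groups, most of the regions that limma called at the 10 genes were lower in the Myc nuclei, and some of these lie nearer to other genes. Of the 72 regions called in every library, 18 were lower and 1 was higher in Myc than in Input nuclei, and 25 were lower and 4 higher in Myc than in PCM1 nuclei. The promoters of 6 of the 10 genes were lower in Myc than in Input: Ppara, Ppargc1a, Esrra, Cpt1a, Cpt1b and Acadm. Among the promoters of all protein-coding genes that limma tested (12384), 10.1% were lower and 10.7% higher in Myc than in Input. Cd36 was more open in Myc nuclei at its promoter against PCM1 and at an intronic region against both other groups. The call of this intronic region against Input was lost without any 1 of the Input or Myc libraries. Higher in Myc is the common direction of promoters in the comparison with PCM1, where 37.7% of all tested promoters were higher and 7.98% lower in Myc, against 1 higher and 4 lower of the 10. Between PCM1 and Input nuclei the differences were fewer and went both ways, with 6 regions higher and 5 lower in PCM1, a split that was 7 and 3 after quantile normalization and 10 and 3 after cyclic loess. Lower in PCM1 is the common direction of promoters there, with 22% of all tested promoters lower and 1.25% higher. Of the 10 promoters, 3 were lower in PCM1 than in Input (Ppara, Esrrg and Cd36) and 0 higher.

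These counts come from limma, fitted to the log2 summit pileup of all 48861 regions called in every library after centring each library on its median, with p-values adjusted over all of them. Called at an adjusted p under 0.05 were 13.3% of all regions for Myc minus Input (2035 higher, 4458 lower), where the 10 genes had 19 of 72 (26.4%). For PCM1 minus Input the share was 10.8% of all regions (1408 higher, 3864 lower) and 11 of 72 (15.3%) of those at the 10 genes. For Myc minus PCM1 it was 28.9% of all regions (7390 higher, 6711 lower) and 29 of 72 (40.3%) at the 10 genes. The median log2 difference over the 72 regions was -0.22 for Myc minus Input, 0.06 for PCM1 minus Input and -0.37 for Myc minus PCM1, against -0.02, -0.04 and 0.00 over all tested regions. The comparisons share libraries with one another, so their counts are not independent of each other, and the shares of the genes and of the genome were not tested against each other.

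The number of calls depends strongly on how peak strength is measured. On the fold enrichment of the authors, limma called 0 of the 72 regions for Myc minus Input and 0 for PCM1 minus Input, with 193 and 278 called over all regions (7055 and 6451 of 48861 at an unadjusted p under 0.05), and 3 of 72 for Myc minus PCM1. Of the 19 Myc minus Input calls, 0 turned sign on that scale. Both scales hold the same summit pileups of the same libraries, so the kept signs are not separate support for the calls. Without both PCM1 libraries, limma called 21 of 78 regions (26.9%) for Myc minus Input, 1 higher and 20 lower, against 9106 of 60421 over the genome (15.1%, with 2940 higher and 6166 lower), and the 19 regions called with all 6 libraries were all called again. That fit takes the same Input and Myc libraries, so it does not test these calls on other data. Leaving out Input replicate 2 took the PCM1 minus Input calls at the 10 genes from 11 to 0 of 77 (1194 regions over the genome, 8794 of 53839 at an unadjusted p under 0.05), and leaving out Input replicate 1 took them to 4 of 73.

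Calls at single regions differed in how far they rest on 1 library. Without each of the 6 libraries in turn, 10 of the 19 Myc minus Input calls were kept every time: the promoters of Ppara, Esrra, Cpt1b and Acadm, the upstream region of Ppara, the region 9099 bp upstream of Fabp3, intron 3 of Cpt1a and 3 intronic regions of Ppargc1b. For Myc minus PCM1 it was 21 of 29, and for PCM1 minus Input each of the 11 was lost at least once. Over all alternatives, the highest adjusted p of a call ran from 0.0415, at the Cpt1b promoter against PCM1, to 0.984, at a Ppargc1b intron region. With 1 library left out, the remaining library of its group is assumed to vary like the other groups.

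**Figure D2:**
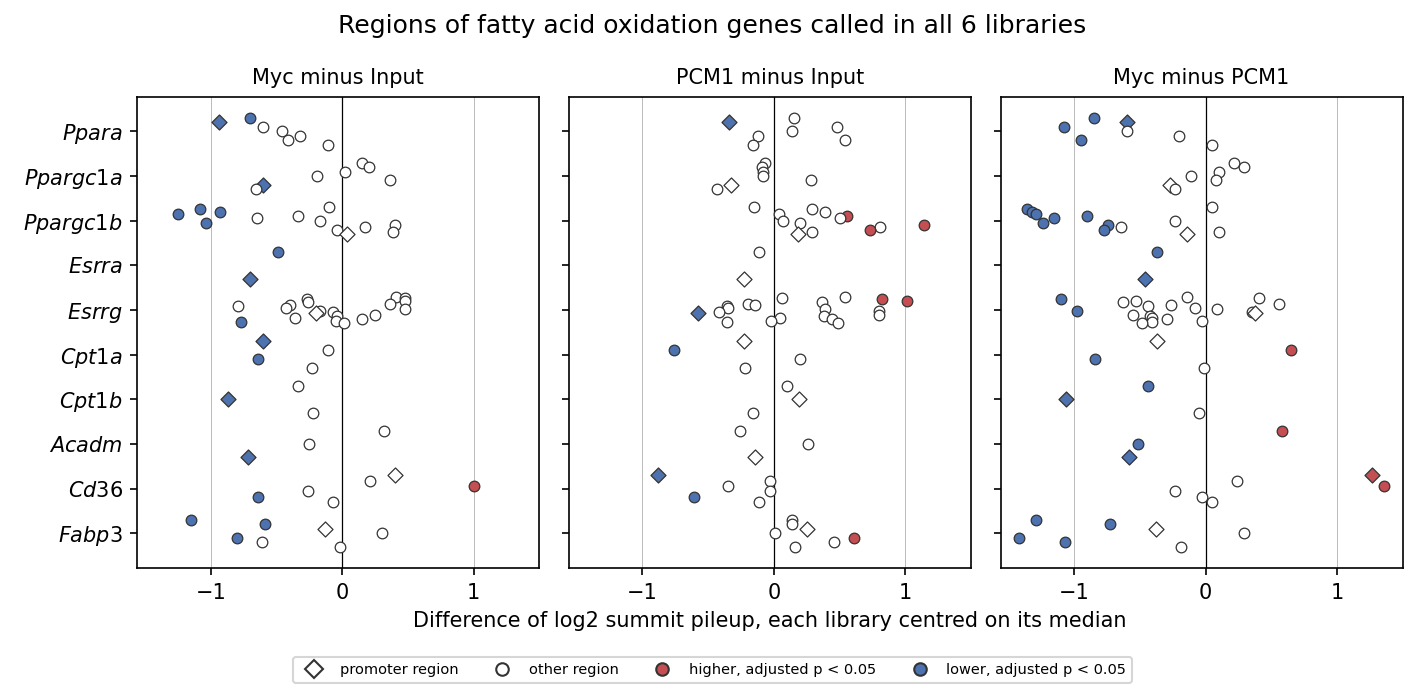
Differences of centred log2 summit pileup (x axis) at the 72 regions called in all 6 libraries, by gene (y axis) and comparison (panels), with diamonds for promoter regions, circles for other regions, red for higher and blue for lower at a limma adjusted p under 0.05, and white for the rest. Blue symbols number 18, 5 and 25 in the panels from left to right, and the Cd36 promoter is the diamond at 1.27 in the right panel.

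Ppara encodes PPARα, the nuclear receptor that senses fatty acids and activates genes for their oxidation. The gene (ENSMUSG00000022383.13) lies on the plus strand of chromosome 15 at 85734983-85802819, and 7 of its 15 regions were called in every library. Its promoter region, 85734451-85736082, ends just before the principal start site at 85736131 and ranked 99 and 97.9 for Input, 95.1 and 94.2 for Myc, and 97 and 97.1 for PCM1. Both Myc values lay below those of all other libraries, and the groups did not overlap, as also with equal numbers of peaks. Centred log2 pileup was 3.06 and 3.04 for Input, 2.18 and 2.04 for Myc, and 2.68 and 2.73 for PCM1. The promoter was lower in Myc than in Input by a log2 difference of -0.94 (95% interval -1.16 to -0.72, adjusted p = 8.96e-08, limma) and lower than in PCM1 by -0.60 (-0.82 to -0.37, adjusted p = 8.15e-05). The smaller difference of PCM1 from Input, -0.34 (adjusted p = 0.0373), was not past the threshold after quantile normalization (-0.17, adjusted p = 0.364) or cyclic loess (-0.14, adjusted p = 0.437), nor without any 1 of the 6 libraries (adjusted p from 0.0508 to 0.164), with adjusted p from 0.0321 to 0.866 over all alternatives.

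The strongest region of Ppara outside the promoter lay upstream of the gene at 85724403-85725431, with its summit 9974 bp from the gene's 5′ end, and ranked 98.1, 97.2, 95.6, 93.9, 98.4 and 98.2 from Input replicate 1 to PCM1 replicate 2. The Myc values were again the lowest, and the region was lower in Myc than in Input (-0.70, adjusted p = 0.000151) and than in PCM1 (-0.85, adjusted p = 3.88e-06). A region in intron 2 (85754068-85754530) and one in intron 7 (85798639-85799163), the latter nearer to the start site of Cdpf1, were lower in Myc than in PCM1 by -1.08 (adjusted p = 0.00436) and -0.95 (adjusted p = 0.00118) and had no call against Input. The first of these calls was lost without Myc replicate 2 (adjusted p = 0.167).

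Ppargc1a encodes PGC-1α, a coactivator known for raising mitochondrial number and oxidative metabolism. The gene (ENSMUSG00000029167.13) occupies 51454250-51567726 on the minus strand of chromosome 5, and its principal start site at 51553922 lies inside the gene record, downstream of the first exon of a longer transcript. The promoter region at 51553631-51554141 ranked 96 and 93.5 for Input, 91.1 and 90.4 for Myc, and 94 and 89.6 for PCM1. Input was above Myc in both libraries, and the PCM1 values straddled those of Myc, but with equal numbers of peaks both PCM1 values (93.4 and 88.8) lay above Myc (87.3 and 86.2). The promoter was lower in Myc than in Input by -0.60 (95% interval -0.91 to -0.28, adjusted p = 0.00777), a call that was lost without Input replicate 2 (adjusted p = 0.136), Myc replicate 1 (0.068) or Myc replicate 2 (0.129), with 0.000673 to 0.51 over all alternatives. Its differences from PCM1 did not pass the threshold. The other 6 of its 7 regions called in every library had no call in any of the 3 comparisons, among them the strongest, in intron 2 at 51517547-51518268, with ranks from 72.6 to 82.7.

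Ppargc1b encodes PGC-1β, the close relative of PGC-1α, and lies on the minus strand of chromosome 18 at 61298136-61400431 (ENSMUSG00000033871.14). Its promoter region (61399458-61400866) ranked 92.1 and 89.8 for Input, 92.6 and 90.6 for Myc, and 89.7 and 86.7 for PCM1. Input and Myc overlapped and PCM1 lay just below both in rank, but all 3 groups overlapped with equal numbers of peaks, and no comparison of the promoter's pileup passed the threshold, with a Myc minus Input difference of 0.04 (95% interval -0.25 to 0.33). The introns behaved otherwise. Of its 13 regions called in every library, 4 were lower in Myc than in Input, 8 were lower in Myc than in PCM1, and 3 were higher in PCM1 than in Input.

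The largest of these Ppargc1b differences sat in introns 1 and 2. The region at 61332586-61333066 had centred log2 pileups of 1.87 and 1.86 for Input, 0.56 and 0.65 for Myc, and 1.82 and 1.99 for PCM1, and was lower in Myc by -1.25 (adjusted p = 4.53e-07) against Input and -1.29 (adjusted p = 1.43e-07) against PCM1. Its neighbour at 61331554-61332201 was lower by -0.93 and -1.32 in the same comparisons, and 61321905-61322377 in intron 2 was lower by -1.08 and -1.36. These 3 regions are nearer to the start site of Pde6a than to that of Ppargc1b, though all lie inside the Ppargc1b gene. Closer to the Ppargc1b start, 61364123-61364499 was lower in Myc by -1.04 and -1.24, and 61358528-61358886 was lower than in PCM1 alone (-1.15, adjusted p = 0.00223). The first of these was not called against Input without any 1 of the Input or Myc libraries (adjusted p from 0.0787 to 0.0929), nor the second without Myc replicate 2 (0.0892) or PCM1 replicate 1 (0.0778). The strongest region outside the promoter, 61346213-61346745, ranked 95.8 and 93.2 for Input, 92.5 and 94.6 for Myc, and 97.4 and 97.2 for PCM1. PCM1 was highest there, by 0.56 over Input (adjusted p = 0.00623), with Myc lower than PCM1 by -0.90 (adjusted p = 4.82e-06). PCM1 was also higher than Input at 61368181-61368605 (1.14, adjusted p = 0.00671) and at 61394770-61395328 (0.73, adjusted p = 0.00466), where Myc was lower than PCM1 by -0.74 and -0.77. None of the 3 calls of PCM1 over Input held without Input replicate 2 (adjusted p = 0.0788, 0.127 and 0.0553 in the order given). The first and the last of them were also lost without Input replicate 1 (0.0645 and 0.0616) and the middle one without PCM1 replicate 2 (0.0662). The Myc minus PCM1 call at 61368181-61368605 was lost without any 1 library other than PCM1 replicate 1, with adjusted p of up to 0.24. On the authors' fold enrichment the sign turned for 61394770-61395328 against Input (-0.20, adjusted p = 0.798; 0.00237 to 0.984 over all alternatives) and for 61368181-61368605 between Myc and PCM1 (0.06, adjusted p = 0.91; 0.0264 to 0.979 over all alternatives), so these directions depend on the scale.

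Esrra encodes ERRα, an orphan nuclear receptor that pairs with the PGC-1 coactivators. It is a compact gene of 10837 bp on the minus strand of chromosome 19 (6910977-6921813, ENSMUSG00000024955.14), and both of its regions were called in every library. The promoter region at 6921387-6922525 ranked 100 and 99.9 for Input, 99.8 and 99.7 for Myc, and 99.9 and 99.8 for PCM1, the highest mean of the 10 genes. Centred log2 pileup was 3.80 and 3.82 for Input, 3.1 and 3.12 for Myc, and 3.56 and 3.59 for PCM1, so the groups did not overlap and the replicates of each lay close together. Myc was lower than Input by -0.70 (95% interval -0.86 to -0.53, adjusted p = 1.31e-07) and lower than PCM1 by -0.46 (adjusted p = 5.76e-05). Quantile normalization, which forces the strongest peaks of all libraries to the same values, shrank these to -0.18 (adjusted p = 0.167) and -0.06 (adjusted p = 0.604), while cyclic loess kept both calls (adjusted p = 0.0123 and 0.00266). Over all alternatives the adjusted p ran from 4.51e-12 to 0.976 and from 2.17e-05 to 0.939. The second region, 6909205-6910605, covers the start sites of Prdx5 and Trmt112 downstream of Esrra, and was lower in Myc by -0.49 against Input and -0.37 against PCM1. After cyclic loess its call against Input was lost (limma adjusted p = 0.117). The first call was lost without Input replicate 1 (adjusted p = 0.0794), Input replicate 2 (0.0629) or Myc replicate 1 (0.239), and the second without Myc replicate 1 (0.389) or PCM1 replicate 2 (0.0587).

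Esrrg encodes ERRγ, which is abundant in oxidative muscle. With 606095 bp on the plus strand of chromosome 1 (187608791-188214885, ENSMUSG00000026610.13) it is the longest of the 10 genes and held 78 of the 199 regions, 20 of them called in every library and 24 in 1 library only. The promoter region of its principal transcript (187997419-187998382) ranked 94.3 and 91.2 for Input, 92.5 and 91.9 for Myc, and 83 and 88.2 for PCM1. Both PCM1 values were lowest, and PCM1 was lower than Input by -0.58 (95% interval -0.96 to -0.20, adjusted p = 0.0383), a call that was lost after quantile normalization (adjusted p = 0.0712), after cyclic loess (0.0913) and without any 1 library other than PCM1 replicate 2 (adjusted p of up to 0.372, and 0.00791 to 0.372 over all alternatives). The strongest other region, 187836507-187837274, far upstream of that start site but inside the gene, ranked 96.8, 95.3, 93.6, 95.3, 96.1 and 95.2 across the libraries in the same order and had no call. An intron 3 region (188118082-188118625) was lower in Myc than in Input (-0.77, adjusted p = 0.00243). PCM1 was higher than Input at 187662004-187662833 (0.82, adjusted p = 0.0257) and 187674740-187675340 (1.01, adjusted p = 0.0387), and Myc was lower than PCM1 at the first of these (-1.10, adjusted p = 0.000849) and at 187951531-187951862 (-0.98, adjusted p = 0.0393). Of these, the intron 3 call was lost without Input replicate 2 (adjusted p = 0.0983) or Myc replicate 1 (0.208), and the 187662004-187662833 call against Input without Input replicate 2 (0.301), PCM1 replicate 1 (0.0644) or PCM1 replicate 2 (0.0603). The 187674740-187675340 call held only with PCM1 replicate 2 as the library left out (otherwise up to 0.313), and that at 187951531-187951862 was lost without Input replicate 2 (0.0593), Myc replicate 1 (0.308), Myc replicate 2 (0.0594) or PCM1 replicate 2 (0.345).

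Regions found in both libraries of exactly 1 group were few and weak. Esrrg had 4 that were called in both Myc libraries and in no other: 187771157-187771414, 187827659-187827891, 187868841-187869080 and 188197556-188197948, with ranks between 3.19 and 32.1. It also had 1 called in both Input libraries only (188169096-188169429, ranks 24.8 and 4.68). In Ppargc1b, 1 intron region on chromosome 18 (61335611-61336077) was called in both PCM1 libraries only, at ranks of 42.1 and 10.3. The 4 Myc regions were 2.01% of the 199, against 1.84% of all regions with that pattern, and the single Input and PCM1 regions 0.503% each, against 1.08% and 0.254%.

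Cd36 encodes the membrane protein that takes up long-chain fatty acids, and it is expressed in capillary endothelium as well as in heart muscle. The gene (ENSMUSG00000002944.15) lies on the minus strand of chromosome 5 at 17781690-17888801, with its principal start site at 17835696 and 20 regions, 6 of them called in every library. The strongest promoter peak ranked 87.3 and 80.8 for Input, 89.4 and 89.1 for Myc, and 69.8 and 70.5 for PCM1. The PCM1 values come from a second promoter region (17836332-17836802), where no comparison passed the threshold (Myc minus PCM1 0.24, adjusted p = 0.506), and the others from the region at the start site, where PCM1 ranked 56.9 and 66.6. Myc was highest and PCM1 lowest, and no group overlapped another. At the promoter region nearest to the start site (17835600-17836249) centred log2 pileup was 0.62 and 0.79 for Input, 1.09 and 1.12 for Myc, and -0.38 and 0.05 for PCM1. Myc was higher than PCM1 by 1.27 (95% interval 0.82 to 1.72, adjusted p = 3.87e-05) and PCM1 lower than Input by -0.88 (-1.33 to -0.43, adjusted p = 0.0081). The call against Input was lost without Input replicate 2 (adjusted p = 0.136) or PCM1 replicate 1 (0.0695), with 0.00295 to 0.283 over all alternatives, and the Myc minus Input difference of 0.40 did not pass (adjusted p = 0.255).

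Further upstream in the first introns of longer Cd36 transcripts, the region at 17843342-17844529 ranked 72.6 and 50.9 for Input, 85.4 and 79.9 for Myc, and 47.9 and 36.8 for PCM1. It was the 1 region of the 72 that was higher in Myc than in Input (1.00, 95% interval 0.41 to 1.60, adjusted p = 0.0182), and it was also higher in Myc than in PCM1 (1.36, adjusted p = 0.000556). The call against Input was lost without any 1 of the Input or Myc libraries (adjusted p from 0.0596 to 0.281), while the call against PCM1 was kept without each library in turn (adjusted p of up to 0.0491). The strongest region outside the promoter, 17880754-17881518, went the other way against Input: it was lower in Myc by -0.64 (adjusted p = 0.00767) and in PCM1 by -0.61 (adjusted p = 0.0146). The Myc call was lost without any 1 of the Input or Myc libraries (adjusted p from 0.0534 to 0.103), and the PCM1 call without Input replicate 1 (0.147), Input replicate 2 (0.0815) or PCM1 replicate 1 (0.0616).

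**Figure D3:**
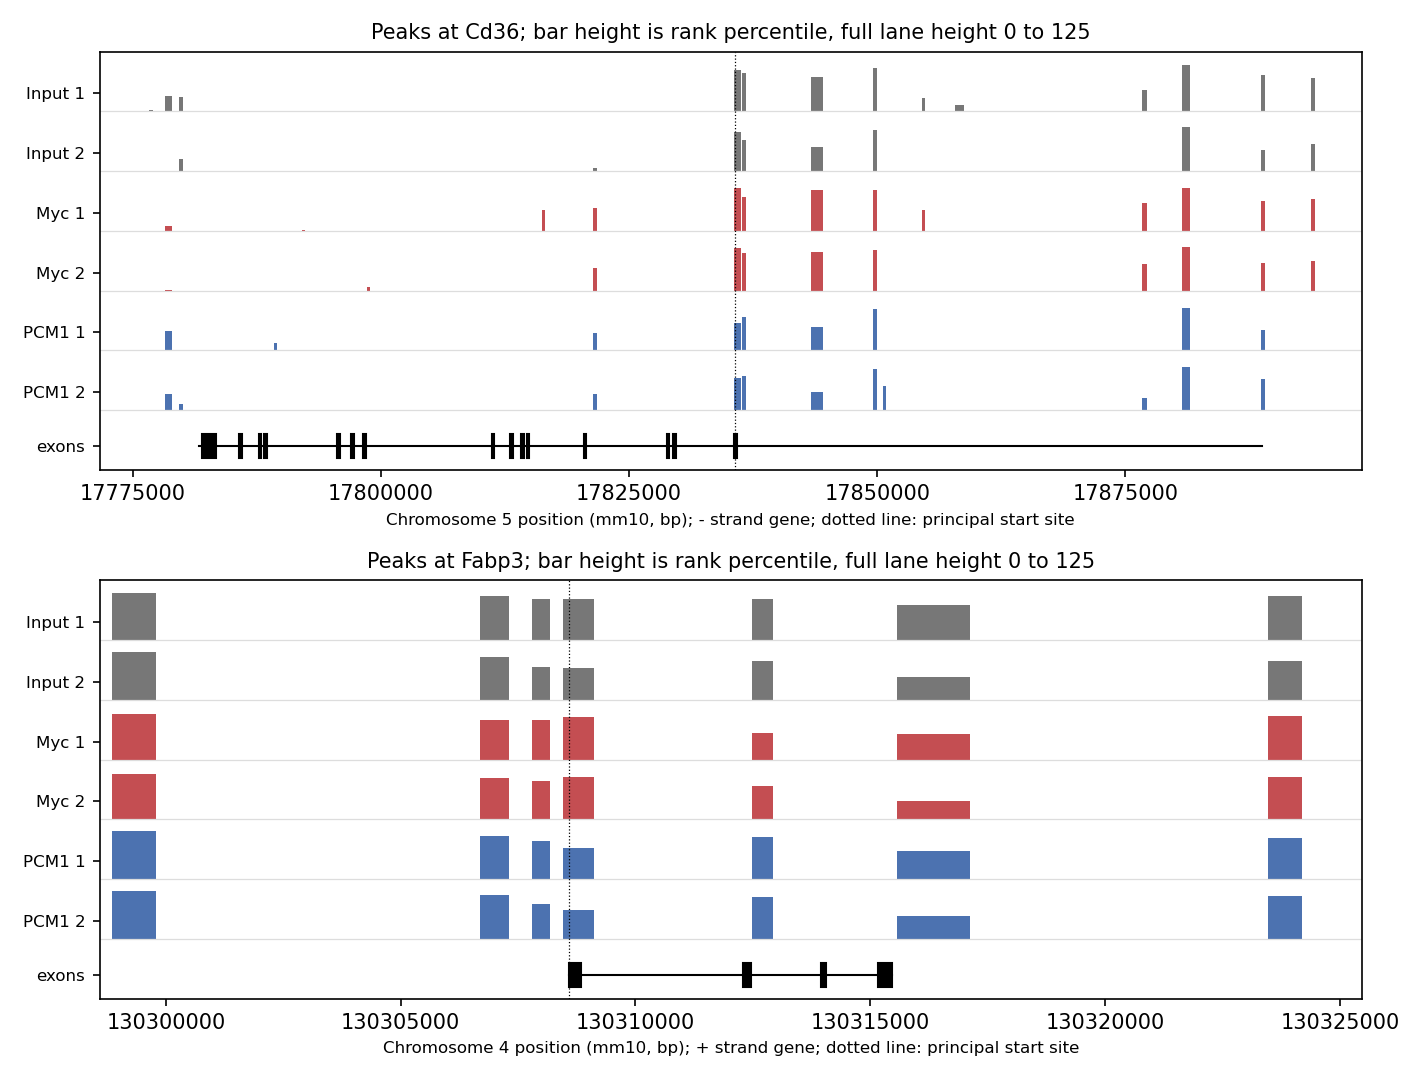
Maps of the Cd36 and Fabp3 windows (x axis, mm10 position in bp) with 1 lane per library, where each bar is a region drawn to scale and its height is the rank percentile of the strongest peak in that library, above the exons of the principal transcript. In the Cd36 window the bars at 17843342-17844529 are taller in both Myc lanes than in the other 4, and all 7 Fabp3 regions appear in all 6 lanes.

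Fabp3 encodes the heart-type fatty acid binding protein of the cytosol. It is the smallest of the 10 genes, 6869 bp on the plus strand of chromosome 4 (130308595-130315463, ENSMUSG00000028773.8), and 7 of its 7 regions were called in every library. Its strongest promoter peak ranked 86.5 and 68.2 for Input, 88.5 and 87.9 for Myc, and 79.6 and 72.3 for PCM1, but these values come from 2 regions: the Myc ranks from the one over exon 1, and the others from the one just upstream, where Myc ranked 81.9 and 80.2, within the range of Input. The rank and the centred pileup do not give the same picture here. Of the 2 promoter regions, the one over exon 1 (130308464-130309122), which also holds the start site of Gm10570, had a Myc minus Input log2 difference of 0.30 (adjusted p = 0.232) and the one just upstream (130307792-130308183) had -0.13 (adjusted p = 0.65), neither past the threshold.

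The strongest peak of the Fabp3 window lay not at the promoter but 9099 bp upstream, at 130298850-130299789. It ranked 99.3 and 98.9 for Input, 94.4 and 95.1 for Myc, and 99.5 and 99.5 for PCM1, and its centred log2 pileup was 3.02 and 3.18, 1.94 and 1.95, and 3.20 and 3.28. Both Myc libraries lay far below the other 4, which were close together. The difference was -1.15 against Input (95% interval -1.37 to -0.94, adjusted p = 5.18e-10) and -1.29 against PCM1 (-1.51 to -1.08, adjusted p = 3.83e-11). A region nearer the gene (130306681-130307301, 1747 bp upstream) was lower in Myc by -0.59 (adjusted p = 0.0067) and -0.73 (adjusted p = 0.000378). The intron 2 region at 130312473-130312920 was lower in Myc by -0.80 against Input and -1.42 against PCM1, and higher in PCM1 than in Input by 0.61 (adjusted p = 0.0108). The downstream region 130315575-130317121 was lower in Myc than in PCM1 (-1.07, adjusted p = 0.000325). These last 2 regions are slightly nearer to the start site of Gm10570 than to that of Fabp3. Against Input, the Myc calls at the nearer upstream region and at intron 2 were lost without Input replicate 2 (adjusted p = 0.234 and 0.0617) or Myc replicate 1 (0.144 and 0.0583), and the PCM1 call at intron 2 without Input replicate 1 (0.157) or Input replicate 2 (0.0599). The 9099 bp region kept both calls without each library in turn.

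Cpt1a and Cpt1b encode the liver-type and muscle-type forms of carnitine palmitoyltransferase 1, the gate for long-chain fatty acids into mitochondria, and the heart is known to shift towards the muscle form after birth. Cpt1b (ENSMUSG00000078937.8) lies on the minus strand of chromosome 15 at 89416405-89425863, and Cpt1a (ENSMUSG00000024900.5) on the plus strand of chromosome 19 at 3322334-3385733. The Cpt1b promoter region (89425586-89426260) ranked 98.3 and 97.9 for Input, 93.9 and 92.9 for Myc, and 98.6 and 99.4 for PCM1. By rank Myc was lowest and PCM1 highest without overlap, but the PCM1 minus Input difference in pileup did not pass (0.19, adjusted p = 0.306). Centred log2 pileup was 2.92 and 3.05 for Input, 2.19 and 2.05 for Myc, and 3 and 3.35 for PCM1. Myc was lower by -0.87 against Input (95% interval -1.10 to -0.64, adjusted p = 8.67e-07) and by -1.06 against PCM1 (-1.29 to -0.83, adjusted p = 1.24e-08), and the latter was also called on the authors' fold enrichment (-0.80, adjusted p = 0.0197; 9.08e-13 to 0.0415 over all alternatives). The other 2 Cpt1b regions lie nearer to other genes, and the stronger of them (89415085-89415842, near Syce3) was lower in Myc than in PCM1 (-0.44, adjusted p = 0.0302), a call lost without any 1 of the Myc or PCM1 libraries (adjusted p from 0.0553 to 0.224).

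The Cpt1a promoter region (3323107-3323614), with its summit in the 5′ UTR in exon 1, ranked 94.2 and 90.9 for Input, 87.2 and 86.1 for Myc, and 93.1 and 86.5 for PCM1. Input lay above Myc, and PCM1 overlapped both, but with equal numbers of peaks PCM1 (92.4 and 85.4) lay above Myc (81.9 and 80). Myc was lower than Input by -0.60 (95% interval -0.91 to -0.29, adjusted p = 0.0065), which was no longer past the threshold without Input replicate 2 (adjusted p = 0.144), Myc replicate 1 (0.0727) or Myc replicate 2 (0.145), with 0.000329 to 0.495 over all alternatives. The strongest region of the gene was not the promoter but one in intron 3 (3353409-3354230), with ranks of 98.5 and 96.9 for Input, 94.9 and 95.8 for Myc, and 98.1 and 99.2 for PCM1. It too was lower in Myc, by -0.64 against Input (adjusted p = 0.000492) and -0.84 against PCM1 (adjusted p = 4.7e-06). A region in intron 1 (3325029-3325722) showed a different pattern, with ranks of 93.4 and 91.4 for Input, 92.4 and 92.8 for Myc, and 78.9 and 78.5 for PCM1. There PCM1 was lower than Input by -0.76 (adjusted p = 0.000493) and Myc higher than PCM1 by 0.65 (adjusted p = 0.000768), the first of which was lost without Input replicate 2 (adjusted p = 0.0542).

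Acadm encodes the medium-chain acyl-CoA dehydrogenase, which opens the β-oxidation cycle for medium-chain fatty acids. The gene (ENSMUSG00000062908.12) lies on the minus strand of chromosome 3 at 153922357-153944632, and all 3 of its regions were called in every library. The promoter region (153943947-153945075) ranked 99.9 and 99.8 for Input, 99.5 and 99.5 for Myc, and 99.9 and 99.8 for PCM1. It was among the strongest peaks of each library, with the Myc values lowest. Centred log2 pileup was 3.63 and 3.65 for Input, 2.89 and 2.95 for Myc, and 3.56 and 3.45 for PCM1, and Myc was lower by -0.72 against Input (95% interval -0.90 to -0.54, adjusted p = 1.94e-07) and by -0.58 against PCM1 (adjusted p = 4.37e-06). A region in intron 7 (153935756-153936493) was lower in Myc than in PCM1 (-0.51, adjusted p = 0.0246), and the region over the start site of Rabggtb (153912559-153913402) was higher (0.58, adjusted p = 0.00413). The intron 7 call was lost without Myc replicate 1 (adjusted p = 0.359) or PCM1 replicate 1 (0.149), and the Rabggtb call without Myc replicate 2 (0.0681).

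Within libraries, 4 pairs of related genes were compared by promoter rank with an exact two-sided permutation test (sign flips over 6 libraries), whose smallest possible p is 0.0312. Cpt1b ranked above Cpt1a in 6 of 6 libraries, by a mean of 7.15 (SD 3.04, exact p = 0.0312, adjusted over 4 pairs 0.0625). Esrra ranked above Esrrg in 6 of 6, by 9.64 (SD 4.07, exact p = 0.0312, adjusted 0.0625). Ppargc1a ranked above Ppargc1b in 4 of 6, by 2.22 (SD 2.46, exact p = 0.125, adjusted 0.167). Fabp3 ranked above Cd36 in 2 of 6, with a mean of -0.623 (SD 7.19, exact p = 0.688). The test takes the libraries of all 3 groups as 6 replicates, but the exceptions went by group: Ppargc1a was below Ppargc1b in both Myc libraries (-1.52 and -0.192), and Fabp3 above Cd36 in both PCM1 libraries (9.87 and 1.76). No pair passed the threshold of 0.05 after adjustment. Without both PCM1 libraries the means were 6.11, 7.34, 1.49 and -3.84 for the pairs in the order given, where 4 libraries allow no exact p below 0.125. Ranked by fold enrichment, Esrra lay above Esrrg by 1.07 only (exact p = 0.688), while the other 3 differences were larger in size, at 16.8, 25.1 and -46.4. The choice of start site matters for the coactivators and the uptake genes: taken at the 5′ end of the gene record, Ppargc1a ranked below Ppargc1b (-18.4) and Fabp3 above Cd36 (22.6).

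Short DNA letters known from sites of transcription factors were looked for on both strands in the 300 bp around the summit of each region called in every library. Regions on chromosome 18 were left out, so Ppargc1b was not searched, and 47119 windows were searched in all, 9 of them member promoters and 47 other member regions. The GC box letters GGGCGG were in 7 of the 9 promoters (Ppara, Esrra, Esrrg, Cpt1a, Cpt1b, Acadm and Cd36), against 71.1% of 11471 promoter windows and 27.4% of all windows. They were in 8 of the 47 other windows, some of which are promoters of other genes, against 13.3% of all windows outside promoters. The E-box letters CACGTG were in the promoters of Cpt1b and Fabp3, against 7.23% of all windows and 10.3% of promoter windows. They were also in 4 of the 47 other windows and in a second, weaker Ppargc1a region within reach of the start site (51552173-51553175).

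The letters of the estrogen-related receptor site, TCAAGGTCA, were in 0 of the 9 promoters and in 1 of the 47 other windows, 1747 bp upstream of Fabp3. They were in 0.855% of all windows and 0.227% of promoter windows. The PPAR-type repeat of AGGNCA with 1 base between was in none of the 9 and none of the 47 (0.499% of all windows and 0.253% of promoter windows). The MEF2 site was in 0 promoters and 3 other windows (6% of all windows and 1.22% of promoter windows). A match is a description of letters and not a bound site, and a missing match says only that these letters are not in these windows.

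The sequences below show where such letters sit in regions whose values are given above. They are from mm10, on the strand of the gene and 5′ to 3′, with the searched letters, or their reverse complement, in capitals. Shown first is the Cpt1b promoter with its E-box and GC box (chr15:89425864-89426087, minus strand), ending at the base before the start site. Next is the Esrra promoter with 2 GC boxes (chr19:6921857-6922156, minus strand), highest of the 10 in mean q-value rank but not by fold enrichment. Both are followed by the Cd36 promoter, which was higher in Myc than in PCM1, with 2 GC boxes (chr5:17835779-17836078, minus strand). Last is the Fabp3 upstream region that was lower in Myc nuclei, with the estrogen-related receptor letters (chr4:130306698-130306997, plus strand).
Cpt1b promoter: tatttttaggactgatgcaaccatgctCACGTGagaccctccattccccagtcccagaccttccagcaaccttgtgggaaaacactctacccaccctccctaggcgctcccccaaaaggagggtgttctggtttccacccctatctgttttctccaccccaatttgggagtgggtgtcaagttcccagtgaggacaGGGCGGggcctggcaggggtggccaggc
Esrra promoter: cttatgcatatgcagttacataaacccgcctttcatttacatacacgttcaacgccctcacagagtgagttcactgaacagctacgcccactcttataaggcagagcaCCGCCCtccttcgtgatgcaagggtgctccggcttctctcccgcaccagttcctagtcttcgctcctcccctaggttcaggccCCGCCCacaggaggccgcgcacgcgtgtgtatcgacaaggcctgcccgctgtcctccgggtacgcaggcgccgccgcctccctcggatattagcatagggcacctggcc
Cd36 promoter: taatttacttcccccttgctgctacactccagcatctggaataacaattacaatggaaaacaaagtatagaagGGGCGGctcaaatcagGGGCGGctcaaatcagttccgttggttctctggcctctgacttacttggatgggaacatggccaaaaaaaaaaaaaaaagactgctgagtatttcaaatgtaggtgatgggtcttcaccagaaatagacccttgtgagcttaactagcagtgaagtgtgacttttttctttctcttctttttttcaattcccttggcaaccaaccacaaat
Fabp3 upstream region: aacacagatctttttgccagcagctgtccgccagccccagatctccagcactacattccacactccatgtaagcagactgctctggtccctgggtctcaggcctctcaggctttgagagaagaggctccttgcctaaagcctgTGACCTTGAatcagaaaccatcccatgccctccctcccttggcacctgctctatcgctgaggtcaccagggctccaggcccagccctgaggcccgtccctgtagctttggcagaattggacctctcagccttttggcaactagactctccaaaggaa

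The GC content of these stretches was 57.6% for Cpt1b, 59.7% for Esrra, 41.3% for Cd36 and 56.3% for the Fabp3 upstream region.

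Among 58 further genes of the pathway in 5 lists, 53 had a promoter peak in every library, and Acacb, which encodes a malonyl-CoA producing carboxylase, had none in any. Of all protein-coding genes 56.5% had a promoter peak in every library, as did 7 of 8 endothelial and 8 of 8 smooth muscle and pericyte markers. A high count is therefore not particular to the pathway. The highest mean promoter ranks were those of the thiolase gene Acaa2 and of Etfdh, an electron transfer enzyme (both 99.6), followed by the carnitine transporter gene Slc22a5 and the kinase gene Pdk4 (both 99.4). The lowest above Acacb were Cpt1c (10.4), a brain form of the carnitine enzyme, and Pparg (18.9), the fat cell relative of Ppara, both called in both Myc libraries and in no PCM1 library. By group of function, all 15 genes of mitochondrial β-oxidation and electron transfer and all 6 known targets of PPAR or starvation had a promoter peak in every library, as did 15 of 16 regulators, 9 of 10 genes of uptake and lipolysis and 8 of 11 genes of activation and carnitine transport.

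Of the 53 tested promoters of these further genes, 10 (18.9%) were lower and 3 (5.66%) higher in Myc than in Input, against 10.1% and 10.7% of the 12384 promoters of all genes. The lower ones were Klf15, Slc27a1, Acsl1, Slc22a5, Crat, Acadvl, Acadl, Acaa2, Eci1 and Pdk4, with log2 differences down to -1.07 at Acsl1, which activates fatty acids, and -0.93 at Pdk4, which restrains glucose oxidation. The higher ones were Med1 (0.69) and Hadha with Hadhb (0.55), which share 1 promoter region. Against PCM1, Myc was lower at 11 (20.8%) and higher at 9 (17%), against 7.98% and 37.7% of all promoters. The lower ones were Esrrb, Slc27a6, Ucp3, Klf15, Slc27a1, Acsl1 (-0.61), Slc22a5, Crat, Acaa2, Eci1 and Pdk4 (-0.56), and the higher ones Lpin1 (1.41), Hadha with Hadhb (1.09), Slc25a20 (0.85), Med1, Cpt2, Nrip1, Ppard and Sirt1. PCM1 was lower than Input at 12 of the 53 (22.6%), against 22% of all promoters, and limma called no other: Tfam, Lpin1, Pnpla2, Acsl1, Slc22a5, Cpt2, Slc25a20, Hadha with Hadhb, Hadh, Eci2 and Pdk4.

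Marker genes of cell types were set beside these values, as median promoter ranks of each list among the same number of strongest peaks in every library, a choice made after seeing the data. Over all protein-coding genes the median was 62.3 and 59 for Input, 65 and 63.8 for Myc, and 53.9 and 53.7 for PCM1. With the full lists it was 78.4 and 59, 75.4 and 74.8, and 58.2 and 57.2. The 8 cardiomyocyte markers had 85.2 and 88.2, 84 and 86, and 87.2 and 85.5 in the same order. Of the 7 with a peak, Myh6 (the highest), Tnni3, Myl2 and Ttn ranked lower in both Myc libraries than in Input, the first 3 also lower than in PCM1 and Ttn higher, while Actn2 was above Input in Myc, and Ryr2 and Pln overlapped. The 8 endothelial markers, with Tie1 highest, had 64.5 and 54.3, 66.4 and 67.5, and 67.2 and 62.9. Among them Kdr, Egfl7, Emcn and Tek ranked higher in Myc than in both other groups, while Tie1 was below both, Esam was higher than in PCM1 only, Pecam1 was lower than in PCM1 and Cdh5 overlapped. The 8 fibroblast markers, with Col1a1 highest, had 55.7 and 50.2, 56 and 55.8, and 42.6 and 36.6, the 8 smooth muscle and pericyte markers, with Tagln highest, 72.8 and 63, 61.2 and 67.7, and 71.6 and 70.4, and the 6 epicardial markers, with Tbx18 highest and Msln at 0, 52.9 and 51.9, 36.2 and 42.7, and 41.3 and 38.2. Col1a1, Dcn, Pdgfra, Rgs5 and Tbx18 of these lists also ranked higher in Myc than in both other groups. Col3a1, Postn, Tcf21 and Myh11 ranked higher in Myc than in PCM1 only. Kcnj8, Abcc9, Tagln and Acta2 ranked lower in Myc than in PCM1 (Acta2 70.8 and 69.7 against 79.2 and 84.6). Wt1 and Upk3b ranked lower in Myc than in Input, and the other markers of these lists overlapped with both groups. In the full lists, all 6 immune markers were at 0 in every library, as were 5 of 6 liver markers (all but Ttr), 3 of 6 adipocyte markers (Plin1, Cidec and Lep) and 2 of 4 erythroid markers (Alas2 and Hbb-bs). The part of cell composition, of depth and of genotype in the differences at the 10 genes was not tested.

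The limits of these data are those of 2 libraries per group and of peak lists without reads. Leaving out 1 library took the Myc minus Input calls at the 10 genes from 19 to 10 without Input replicate 2 or Myc replicate 1, and the PCM1 minus Input calls from 11 to 0 of 77 without Input replicate 2 (by limma, with 8794 regions of the genome at an unadjusted p under 0.05), 4 without Input replicate 1 and 5 without PCM1 replicate 1. Over the genome, the Myc minus PCM1 calls went from 14101 to 7224 without Myc replicate 1 and 8465 without Myc replicate 2. A region without a peak may only be too weak for the depth of its library. Genotype and sorting differ together in the Myc group, and regions were assigned to genes by distance, so none of them is shown to act on its gene. Transcript levels were not measured in these libraries.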

How the data were processed

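The authors mapped reads to mm10 and called peaks in each library on its own; their processing notes name FastQC 0.11.5, Bowtie2 2.3.3.1, Picard 2.2.1, bedtools 2.7.1, MACS2 2.1.0.20160309 and HOMER. The deposited peak lists give a score (10 times the -log10 q-value, as whole numbers up to 1000), the ratio of summit pileup to local background (fold enrichment), and, as -log10, the p-value of each summit beside its q-value. Read totals are not in the lists. The study states a range of mapped reads over its libraries, but the total of each library was not at hand, so depth is taken from the background. Summit pileup was solved from the deposited fold enrichment and p-value, which gave whole numbers within 0.02. Peaks were merged over the 6 lists by an overlap of at least 1 bp. Groups were compared with limma 3.58.1 (R 4.3.3, intensity trend, group only) on log2 pileup centred on the library median, over regions called in all 6 libraries, at an adjusted p of 0.05. Python 3.11.15, numpy 2.4.6, pandas 2.3.3, scipy 1.17.1 and matplotlib 3.10.9 did the rest, and the steps were tested on simulated data.

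Promoters were taken within 1 kb of the start site of the APPRIS principal transcript. Named are all 10 genes, the promoter region and the strongest other region of each, every region called by limma, and regions in both libraries of exactly 1 group. Of 58 other pathway genes in 5 lists, named are those without a promoter peak, the highest and lowest 3 in rank, and those called; 1 further planned list and 1 of the searched motifs are not reported. The members and the lists of pathway and marker genes were chosen with earlier results of these data known. Alternatives were other promoter windows and start sites, ranks by fold enrichment, a q-value under 0.01, the same number of strongest peaks (75336), other flanks, merging by summits within 100 bp, other normalizations, regions called in at least 4 libraries, the replicate number as a block, and leaving out each library or both PCM1 libraries.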

Additional observations from a re-analysis of the deposited data

How the results depend on the processing

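All 10 genes had a promoter peak in every library under each of the 13 alternatives, which include 200 bp or 2 kb windows, other start sites and each library left out (10 to 10). The genes had 199 regions in all and 302 with 50 kb flanks, 179 to 199 without 1 library, and 72 in every library, 73 to 77 without 1. The median over the genes of the mean promoter rank was 91.3, with 79.5 by fold enrichment, 89.1 with the same number of strongest peaks and 92.6 without both PCM1 libraries. Cpt1b minus Cpt1a was 7.15, and passed the threshold by fold enrichment (16.8) and, with value and exact p unchanged, at the 5′ end of the gene record (7.15) and at any start site (7.15), with 5.99 to 7.76 without 1 library. Esrra minus Esrrg was 9.64, and passed at the gene record's 5′ end (38.3) and, with value and exact p unchanged, at any start site (9.64), with 8.19 to 10.4 without 1 library. For both pairs the exact p was 0.0312, the smallest possible, with all 6 libraries in the reported ranks and in each setting that passed, so they passed only because p of the other pairs fell and the adjustment with it. Ppargc1a minus Ppargc1b was 2.22, passed by fold enrichment (25.1) and turned to -18.4 at the gene record's 5′ end, where it passed in the opposite direction (adjusted p = 0.0312, and 0.0312 to 0.5 over all alternatives), with 1.78 to 2.96 without 1 library. Fabp3 minus Cd36 was -0.623, passed by fold enrichment (-46.4) and at any start site (-7.07), and turned to 8.65 with 2 kb windows, 22.6 at the gene record's 5′ end, where it passed in the opposite direction (adjusted p = 0.0312, and 0.0312 to 0.812 over all alternatives), and 1.77 without Input replicate 2, with -2.72 to 1.77 without 1 library.

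The limma counts over all regions were 6493 for Myc minus Input, 5272 for PCM1 minus Input and 14101 for Myc minus PCM1. They were 193, 278 and 4069 on fold enrichment, 457, 918 and 5085 on rank percentiles, and 9, 9 and 2103 over regions called in at least 4 libraries. In the last of these the prior degrees of freedom of limma were 3.58, against 33.8 in the fit reported, beside 3 residual ones. At the 10 genes the counts were 19, 11 and 29, with 0, 0 and 3 on fold enrichment, 4, 1 and 11 on rank percentiles, and 0, 0 and 9 over regions called in at least 4 libraries (all by limma, with 11669, 11298 and 18458 regions at an unadjusted p under 0.05, and 7055, 6451 and 12450 on fold enrichment). Without 1 library, the counts over all regions were 2026 to 8679, 1194 to 4634 and 7224 to 13210, and at the 10 genes 10 to 21, 0 to 9 and 24 to 30. The lowest came without Input replicate 2 for Myc minus Input (2026) and PCM1 minus Input (1194), and without Myc replicate 1 for Myc minus PCM1 (7224). Other leave-outs that moved a count by over 1.5 times were Input replicate 1 (4069 and 2639 for Myc and PCM1 minus Input), Myc replicate 1 (2354) and Myc replicate 2 (2710, and 8465 against PCM1), and, at the 10 genes, Input replicate 2 (10 and 0, the latter by limma with 8794 regions at an unadjusted p under 0.05), Myc replicate 1 (10), Input replicate 1 (4) and PCM1 replicate 1 (5 for PCM1 minus Input).

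Scaling moved the split of directions. Of all Myc minus Input calls, 31.3% were higher in Myc, against 41.2% after quantile normalization, 43.5% after cyclic loess, 20.8% on rank percentiles, 20.2% on fold enrichment and 77.8% of the 9 over regions called in at least 4 libraries. Without Input replicate 2, Myc replicate 1 or Myc replicate 2 it was 13.2%, 10.9% and 15.2%. For PCM1 minus Input the share higher was 26.7%, 41%, 43.9% and 5.23%, with 15.1% without Input replicate 2 and 100% of the 9 over regions called in at least 4 libraries, and for Myc minus PCM1 it was 52.4%, 51.5%, 51.2% and 82%, with 73% over regions called in at least 4 libraries. At the 10 genes, cyclic loess gave 1 higher and 17 lower, 10 and 3, and 4 and 28. Cyclic loess, and the fit and the gene order without both PCM1 libraries, were chosen after seeing the data. With the replicate number as a block the counts at the 10 genes were 19, 12 and 29. Of 28 named promoter and strongest other regions with a call, 24 were also called after quantile normalization and 1 on fold enrichment, and 0 turned direction under any alternative. The alternatives draw on the same libraries, so a kept direction is not separate support. The causes of these changes were not tested. The depth of the lists sets which weak peaks were called, so a region without a peak in a library is not shown to be closed there.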
